A study of Mus musculus with 6 samples.

Results

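The lysyl oxidases and collagen hydroxylases were described as 10 of the 54146 genes in the TPM table: Lox, Loxl1, Loxl2, Loxl3, Loxl4, Plod1, Plod2, Plod3, P4ha1 and P4ha2. They were chosen by gene name, and each name matched 1 row. TPM corrects the reads of a gene for transcript length and scales every library to the same total, so levels of different genes can be set side by side. The libraries came from D2A1, a mouse mammary tumor cell line, grown in 3D in Matrigel (a basement membrane gel) in DMEM with serum. All cultures received a recombinant protein at 50 nM, either rSLURP1, the secreted Ly6 family protein under study, or rGST as the control protein, and the study's methods give harvest on the fifth day. There were 3 libraries per treatment, of 1 cell line, and the sources do not say whether they came from separate cultures, so p-values measure the spread between these libraries, which may be technical. No gene was targeted in these cells, and the comparison asks which genes differ between rSLURP1 and control spheroids.

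Collagen chains are modified in the endoplasmic reticulum before they fold. Prolyl 4-hydroxylases, tetramers of a catalytic alpha subunit (P4ha1, P4ha2) and protein disulfide isomerase (P4hb), hydroxylate prolines and so stabilize the triple helix. Lysyl hydroxylases (Plod1, Plod2, Plod3) hydroxylate lysines, and both classes need oxygen, iron, ascorbate and oxoglutarate. Outside the cell, the copper-dependent lysyl oxidases (Lox and Loxl1 to Loxl4) oxidize lysines and hydroxylysines of collagen and elastin, the first step of cross-linking. In mammary tumors, lysyl oxidases and Plod2 are known for matrix stiffening, and P4ha1, P4ha2 and Plod2 are known targets of the hypoxia-inducible factor (HIF).

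With rSLURP1 and the TPM as deposited, both prolyl 4-hydroxylase alpha subunits, Plod1, Plod2 and Loxl3 were lower, whereas Plod3 and Loxl4 were not called. P4ha2 fell to 51.8% of its control mean and P4ha1 to 58.7%. Lox, Loxl1 and Loxl2, the other members, were at or near 0 in every library. Of the 10 members, 7 passed the filter (1 TPM or more in 3 or more libraries) and were tested in limma among 12301 genes, and 5 were called lower and 0 higher at an adjusted p of 0.05 or less. At an unadjusted p under 0.05 the number higher was also 0. The background was large: 58.5% of all tested genes were called lower and 8.66% higher, so 5 of 7 is read against that share. With a fold change of 2 or more also required, none of the members was called lower, against 7.06% of all tested genes.

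The scaling of the libraries set part of this picture. The median log2 fold change of all tested genes was -0.33 with the TPM as deposited and 0.01 after median-ratio scaling, which divides each library by the median ratio of its genes to their means. With that scaling 24.6% of the tested genes were called lower and 26.6% higher, and among the members P4ha1 and P4ha2 were called lower and Plod3 and Loxl4 higher. Fold changes of the tested members below are therefore also given relative to the median of all tested genes. Those of other genes are as deposited unless a scaling is named. The 10 most abundant genes made up 11.7% to 12.6% of each rGST library and 13.5% to 15.4% of each rSLURP1 library, and the part of this in the shift was not tested.

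The labelled cell type was checked against markers. Of the epithelial markers, Krt18 (a simple epithelial keratin) had 191.1 to 199.4 TPM in all 6 libraries, Krt8 had 0.51 to 1.66 TPM, Cdh1 had at most 0.070 TPM, and Epcam, Krt5 and Krt14 were listed at 0. Fibroblast markers were present in the control libraries and moved with treatment. Of the 8, 6 were tested (Pdgfra, Pdgfrb, Dcn, Lum, Dpt and Mfap5). All 6 were called lower under both scalings, beside 58.5% of tested genes as deposited and 24.6% with median-ratio scaling. Their summed level with Thy1 and Fap was 1153 to 1299 TPM with rGST and 76.6 to 87.35 TPM with rSLURP1. Thy1 and Fap were listed at 0 in 4 and 5 of the 6 libraries. The part of these markers in the results below was not tested, and in bulk samples fewer cells of a type and less RNA per cell cannot be told apart. Of the immune markers only Cd68 was tested and it was higher, while Ptprc and Adgre1 were at or near 0. The 5 endothelial markers summed to at most 0.31 TPM.

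**Figure D1:**
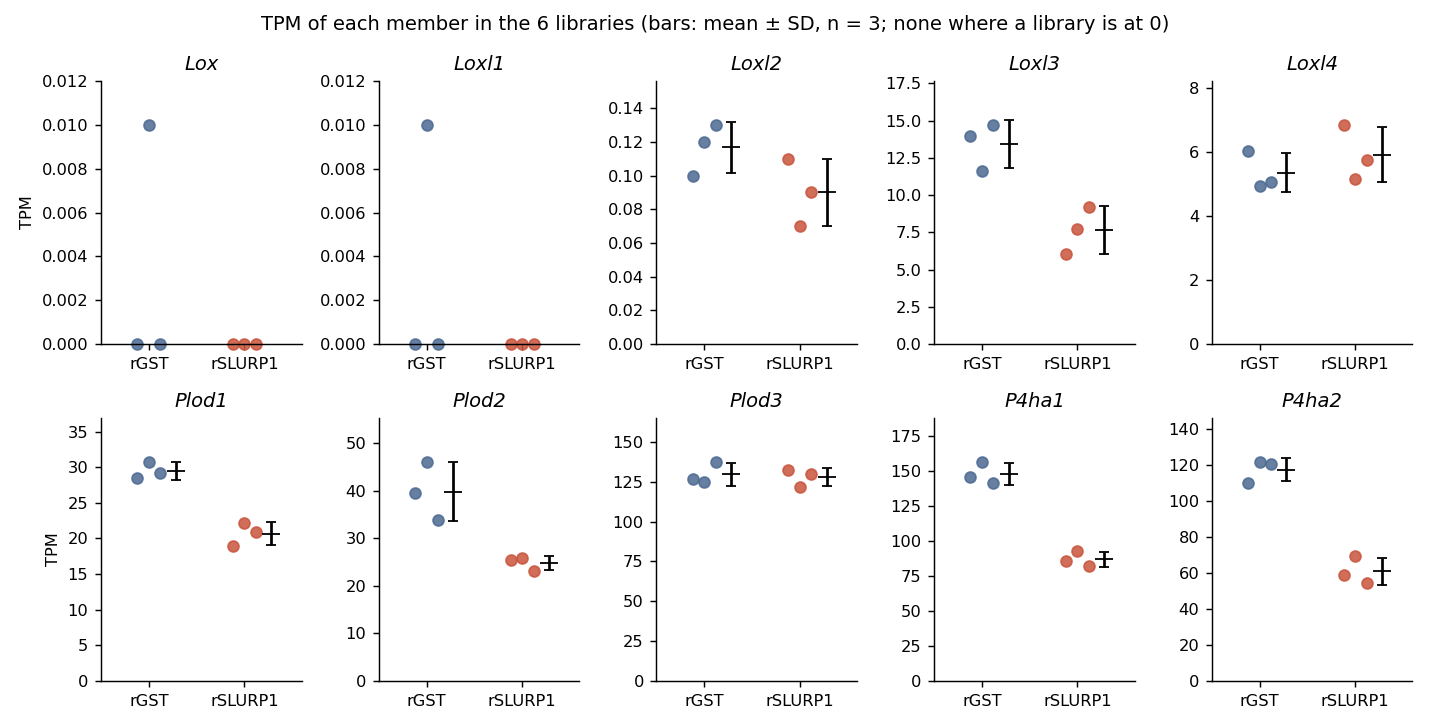
TPM of each member (y axis, linear, from 0, a separate scale per gene) in the 3 rGST and 3 rSLURP1 libraries, where points are libraries and bars are the mean ± SD, n = 3, drawn where no library is at 0. Loxl3, Plod1, Plod2, P4ha1 and P4ha2 do not overlap between treatments, Loxl4 and Plod3 do, and Lox and Loxl1 are listed at 0 in 5 of the 6 libraries.

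In the control libraries, P4ha1 had the highest level, followed by Plod3, P4ha2, Plod2, Plod1, Loxl3, Loxl4 and Loxl2. Neighbours in this order did not overlap in range over the 3 rGST libraries, down to Lox and Loxl1, which could not be ordered. With rSLURP1, Plod3 was first and P4ha1 second, and the rest kept their order. The ranges of Loxl3 and Loxl4 then overlapped, so their order did not exceed the spread. The lowest hydroxylase value in any library was 18.9 TPM (Plod1), and the highest lysyl oxidase value was 14.7 TPM (Loxl3). The plot of TPM by library shows these values for each member.

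P4ha1 (ENSMUSG00000019916.14, GRCm38 chromosome 10, 59323296 to 59373304, plus strand) encodes the main catalytic alpha subunit in most cells. Its TPM was 145.8, 156.7 and 141.1 in rGST replicates 1 to 3 and 85.7, 92.6 and 82.2 in rSLURP1 replicates 1 to 3. Every rSLURP1 library was below every rGST library. In limma the log2 fold change was -0.76 with a standard error of 0.060 (adjusted p = 3.12e-05), which is -0.44 when the median of all tested genes is taken as 0. P4ha1 was called lower in each of the 14 alternative fits, with log2 fold changes from -0.81 to -0.36.

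P4ha2 (ENSMUSG00000018906.14, chromosome 11, 54100095 to 54131665, plus strand) encodes the second alpha subunit. Its TPM was 110.0, 121.8 and 120.3 with rGST and 58.9, 69.2 and 54.3 with rSLURP1 (replicates 1 to 3). The treatments did not overlap here either. P4ha2 had the lowest log2 fold change of the members, -0.94 with a standard error of 0.089 (limma, adjusted p = 7.38e-05) and -0.62 against that median, and 8.38% of all tested genes were as low or lower. It was called lower in each of the 14 alternative fits, from -1.04 to -0.55. The remaining alpha subunit gene, P4ha3, did not pass the filter.

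The promoters of P4ha1 and P4ha2 are shown because these genes were called lower under every scaling and are known HIF targets, with that of Plod3, which was not lower, beside them. Promoter sequences from RefSeq (GRCm38.p6) matched 5 of the 10 members, Loxl4, Plod1, Plod3, P4ha1 and P4ha2. The 250 bases before each start are written 5′ to 3′ on the strand of the gene, with the core letters of the HIF motif, ACGTG and GCGTG on either strand, in capitals. The P4ha1 window is chr10:59323046-59323295 (plus strand), the P4ha2 window chr11:54100674-54100923 (plus strand) and the Plod3 window chr5:136986769-136987018 (plus strand). The P4ha2 window lies within the annotated gene span, since RefSeq places this start further downstream.
P4ha1: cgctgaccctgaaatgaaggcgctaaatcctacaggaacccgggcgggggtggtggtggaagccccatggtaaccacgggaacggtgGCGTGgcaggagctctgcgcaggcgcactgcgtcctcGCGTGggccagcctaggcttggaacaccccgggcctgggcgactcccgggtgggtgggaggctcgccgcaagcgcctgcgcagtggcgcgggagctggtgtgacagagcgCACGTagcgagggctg
P4ha2: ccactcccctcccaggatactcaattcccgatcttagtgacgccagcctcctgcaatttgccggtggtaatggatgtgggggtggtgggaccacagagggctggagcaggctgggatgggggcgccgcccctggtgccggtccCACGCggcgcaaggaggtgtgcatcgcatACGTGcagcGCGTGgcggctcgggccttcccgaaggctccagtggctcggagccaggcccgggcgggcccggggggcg
Plod3: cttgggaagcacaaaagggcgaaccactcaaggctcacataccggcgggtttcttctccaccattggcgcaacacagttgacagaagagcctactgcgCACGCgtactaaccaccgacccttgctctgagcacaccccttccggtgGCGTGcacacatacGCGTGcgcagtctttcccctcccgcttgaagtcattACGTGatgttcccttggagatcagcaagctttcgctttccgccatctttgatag
The P4ha1 window held 3 core matches, the P4ha2 window 3 and the Plod3 window 4, and Plod1 and Loxl4 held 1 each. Of all 32851 promoter windows of this length, 38.6% held at least 1 match and 6.58% held 3 or more. GC content was 69.6% for P4ha1, 70% for P4ha2 and 55.6% for Plod3, and overlapping matches were each counted. Both cores hold the letters CG, and shares in windows of like GC content were not computed. All 5 member windows held at least 1 match and 60% held 3 or more. Whether this exceeds the share at like GC content was not tested. The matches are a description of letters, not of bound sites, and their part in the changes was not tested.

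Plod3 (ENSMUSG00000004846.10, chromosome 5, 136987019 to 136996648, plus strand), which also carries a glycosyltransferase activity for hydroxylysine, was the most abundant lysyl hydroxylase. It had 126.6, 124.7 and 137.7 TPM with rGST and 132.7, 121.9 and 130.1 TPM with rSLURP1. The treatments overlapped, and the log2 fold change was -0.02 (0.054 standard error, 95% interval -0.14 to 0.11, adjusted p = 0.812 in limma). Relative to the median of all tested genes this was 0.31, and with median-ratio scaling Plod3 was called higher at 0.34 (adjusted p = 0.00254 in limma). It overlaps Znhit1 on the opposite strand, and the sources used here do not say whether the counting used strand.

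Plod2 (ENSMUSG00000032374.14, chromosome 9, 92542223 to 92608428, plus strand), whose product hydroxylates collagen telopeptides and so sets the type of cross-link, had 39.4, 46.1 and 33.8 TPM with rGST. With rSLURP1 it had 25.5, 25.9 and 23.0 TPM. All rSLURP1 libraries were lower, and the SD was 6.19 TPM with rGST and 1.53 TPM with rSLURP1. Its change on the log2 scale was -0.65 with a standard error of 0.110 (limma, adjusted p = 0.00135), and -0.33 against the median of all genes. With median-ratio scaling it was -0.30 with an adjusted p of 0.0511 in limma, so the call did not hold.

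Plod1 (ENSMUSG00000019055.15, chromosome 4, 147909753 to 147936767, minus strand), which acts on lysines of the helix, had 28.4, 30.8 and 29.2 TPM with rGST and 18.9, 22.2 and 20.9 TPM with rSLURP1. The treatments did not overlap. Plod1 changed by -0.49 on the log2 scale with a standard error of 0.073 (limma, adjusted p = 0.000672), and by -0.17 against the median of all genes. With median-ratio scaling it was -0.15 (adjusted p = 0.0971 in limma), so Plod1 was not called under that scaling.

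Loxl3 (ENSMUSG00000000693.10, chromosome 6, 83034173 to 83052562, plus strand), a lysyl oxidase with scavenger receptor domains, was the most abundant of its family. It had 13.98, 11.6 and 14.7 TPM with rGST and 6.04, 7.73 and 9.23 TPM with rSLURP1. The highest rSLURP1 library lay below the lowest rGST library. Loxl3 changed by -0.75 on the log2 scale with a standard error of 0.151 (limma, adjusted p = 0.00325), by -0.42 against the median of all genes, and with median-ratio scaling by -0.42 (adjusted p = 0.0534 in limma), at which it was not called. Loxl3 overlaps Htra2 on the opposite strand.

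Loxl4 (ENSMUSG00000025185.14, chromosome 19, 42593982 to 42612813, minus strand), its closest relative in level, had 6.05, 4.93 and 5.08 TPM with rGST and 6.85, 5.16 and 5.75 TPM with rSLURP1. The libraries of the treatments overlapped, and the log2 fold change was 0.12 (0.126 standard error, 95% interval -0.17 to 0.41, adjusted p = 0.423 in limma). Relative to the median of all tested genes this was 0.45, and with median-ratio scaling Loxl4 was called higher at 0.43 (adjusted p = 0.0300 in limma).

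Loxl2 (ENSMUSG00000034205.16, chromosome 14, 69609068 to 69695834, plus strand) was listed at 0.10, 0.12 and 0.13 TPM with rGST and 0.11, 0.070 and 0.090 TPM with rSLURP1, below the filter. Lox (ENSMUSG00000024529.13, chromosome 18, 52516067 to 52529867, minus strand), the founding member of the family, was listed at 0.010 TPM in rGST replicate 2 and at 0 in the other libraries. Loxl1 (ENSMUSG00000032334.10, chromosome 9, 58287738 to 58313186, minus strand), known for elastin cross-linking, had the same listing. The number of reads behind a TPM is not known, so Lox and Loxl1 have no detection limit and no fold change here.

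**Figure D2:**
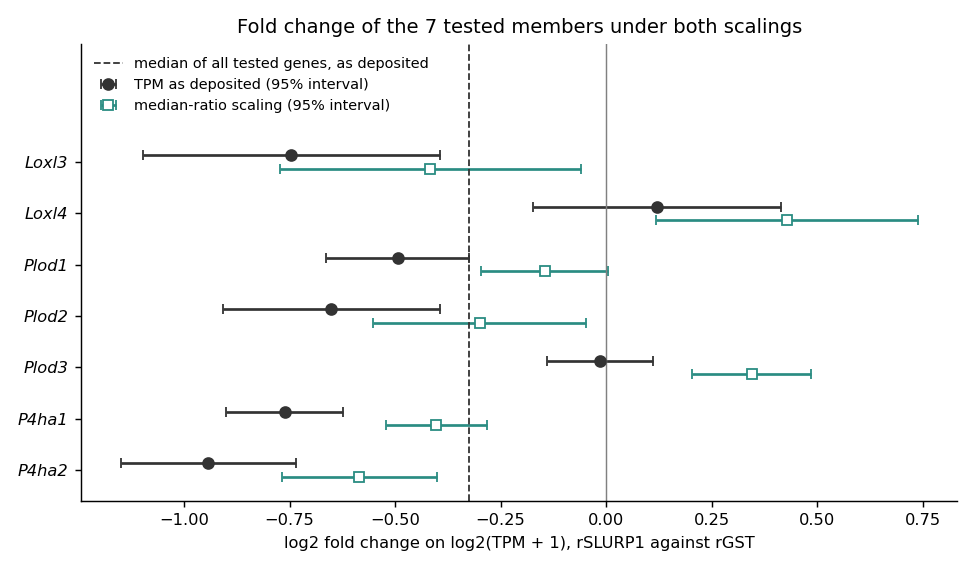
Log2 fold change of the 7 tested members (x axis, on log2(TPM + 1), rSLURP1 against rGST) with the TPM as deposited (filled circles) and with median-ratio scaling (open squares), each with its 95% interval from limma, not adjusted for the number of genes. The dashed line is the median of all tested genes as deposited, -0.33. The intervals of P4ha1, P4ha2, Plod2 and Loxl3 lie below 0 under both scalings, that of Plod1 only as deposited, and those of Plod3 and Loxl4 lie above 0 with median-ratio scaling.

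Each of the 5 members called lower had every rSLURP1 library below every rGST library. This held for 61.7% of all tested genes, and the reverse for 9.75%, which none of the members showed. For a single gene, an exact permutation test of 3 against 3 libraries gives a two-sided p of 0.1 at the least, which each of the 5 reached. The plot of fold changes under both scalings shows how the members shift together by about the median of all genes.

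The make-up of each family was compared next, since a share of a sum within a library does not depend on how libraries are scaled. Loxl3 made up 71.0% ± 2.50 of the lysyl oxidase TPM with rGST and 55.8% ± 8.11 with rSLURP1 (n = 3 each, SD), and nearly all of the rest was Loxl4. By library the Loxl3 share was 69.4%, 69.6% and 73.8% with rGST and 46.5%, 59.6% and 61.2% with rSLURP1. Among lysyl hydroxylases, the Plod3 share was 65.2% ± 3.38 with rGST and 73.8% ± 1.80 with rSLURP1 (n = 3 each, SD). Plod2 went from a range of 16.8% to 22.9% to one of 13.2% to 15.2%, and Plod1 from 14.8% ± 0.395 to 11.9% ± 1.19 (SD, n = 3 each). The P4ha1 share of the prolyl 4-hydroxylase alpha subunits was 55.8% ± 1.57 with rGST and 58.9% ± 1.52 with rSLURP1 (n = 3 each, SD).

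In each of these shares the libraries of the treatments did not overlap, at the smallest two-sided p that the exact permutation test allows, 0.1 (adjusted p = 0.127 over the 14 shares and ratios compared). None of them could have reached 0.05 in this design. The margin was narrow for the P4ha1 share, with the highest rGST library at 57.0% and the lowest rSLURP1 library at 57.2%. The share of Loxl2 overlapped between treatments (exact permutation test, two-sided p = 0.8).

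**Figure D3:**
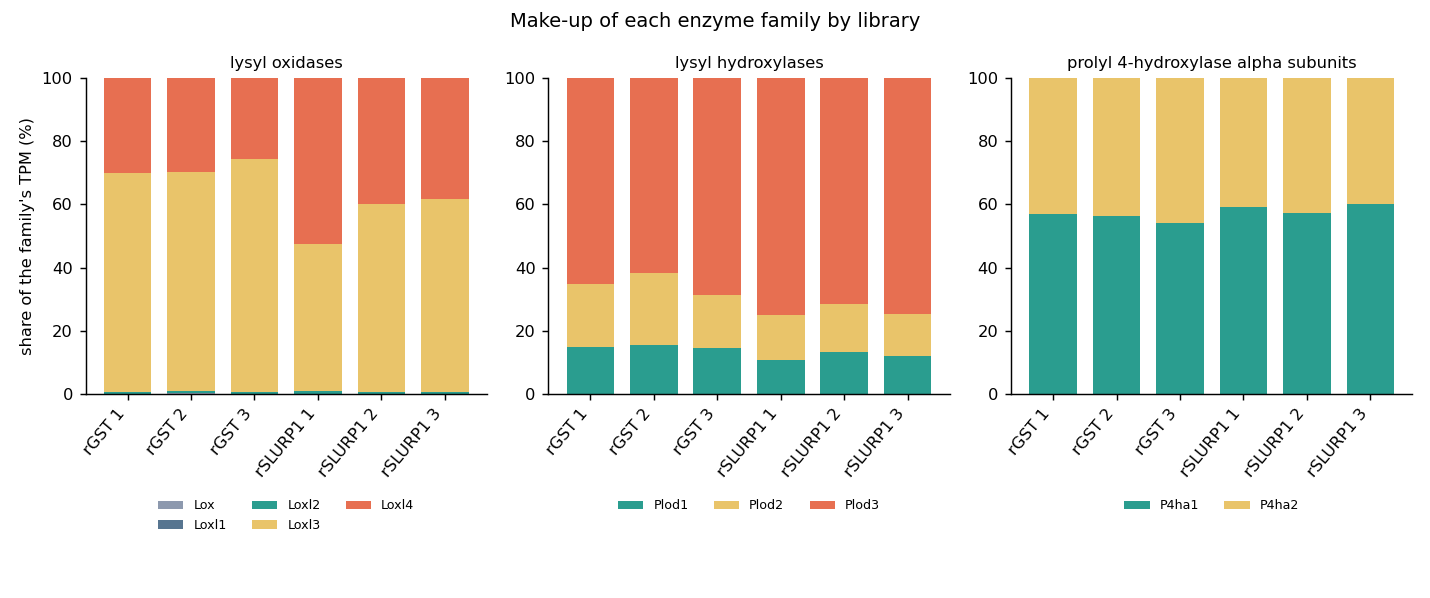
Share of each member in the TPM of its family (y axis, percent) in each of the 6 libraries, as stacked bars that sum to 100%. The Loxl4 and Plod3 parts of all rSLURP1 libraries exceed those of all rGST libraries, the part of Loxl2 is a thin strip, and those of Lox and Loxl1 are too thin to see.

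Summed over each family, lysyl oxidases had 18.9 ± 1.94 TPM with rGST and 13.7 ± 1.21 with rSLURP1, lysyl hydroxylases 198.9 ± 3.92 and 173.7 ± 3.58, and the prolyl 4-hydroxylase alpha subunits 265.2 ± 11.8 and 147.6 ± 12.9 (SD, n = 3 each). P4ha1 and P4ha2 together amounted to 36.9% ± 1.07 of the P4hb level with rGST and 23.0% ± 1.81 with rSLURP1 (n = 3 each, SD). P4hb, which also serves as a general disulfide isomerase, was at 718.1 ± 12.04 TPM in rGST and 641.9 ± 5.80 TPM in rSLURP1 libraries (SD, n = 3 each). It was called lower as deposited (log2 fold change -0.16) and higher with median-ratio scaling (0.20), while its ratio to the alpha subunits does not depend on the scaling.

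Relative to the summed fibrillar collagen chains the enzymes went the other way. The sum of Col1a1, Col1a2, Col3a1, Col5a1 and Col5a2 was 504.7 ± 5.23 TPM with rGST and 231.2 ± 21.4 with rSLURP1 (n = 3 each, SD), nearly all of it Col5a1. Lysyl hydroxylases amounted to 39.4% ± 0.885 of that sum with rGST and 75.7% ± 8.83 with rSLURP1, the alpha subunits to 52.6% ± 2.74 and 64.1% ± 6.85, and lysyl oxidases to 3.74% ± 0.357 and 5.94% ± 0.577 (SD, n = 3 each). All 4 ratios, that to P4hb included, were free of overlap between treatments (two-sided p = 0.1 each by the exact permutation test, adjusted p = 0.127). The margin was narrow for the alpha subunits, with the highest rGST library at 55.7% and the lowest rSLURP1 library at 56.6%. How often ratios of other genes separate the treatments was not examined. Col5a2, a usual partner of Col5a1 in type V collagen, was at 0.080 TPM or less in all 6 libraries. The sum leaves out the basement membrane chains. Col4a1 had means of 124.8 TPM with rGST and 151.8 with rSLURP1, and Col4a2 of 187.5 and 177.0. Ratios to these chains were not computed, so the rise holds for the fibrillar sum only.

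The other genes of the pathway were taken from 5 lists with 70 genes, of which 49 were tested, 34 called lower and 7 higher, beside 58.5% and 8.66% of all tested genes. With median-ratio scaling the numbers were 21 lower and 18 higher, beside 24.6% and 26.6%. These shares are the background for each list that follows. Of the genes that fold and modify collagen, 15 of 19 were tested, 11 were lower and 2 higher, with a median log2 fold change of -0.38 beside -0.33 for all tested genes. With median-ratio scaling the balance turned round, to 4 lower and 6 higher. P3h3, of the prolyl 3-hydroxylase family, fell from 89.3 ± 3.23 to 39.0 ± 1.99 TPM (SD, n = 3 each, log2 fold change -1.18, adjusted p = 2.94e-06 in limma). Fkbp7, a peptidyl-prolyl isomerase of the endoplasmic reticulum, fell by 1.17 on the log2 scale and Crtap, a partner of P3h1, by 0.64. Ppib and Tmem38b were the genes called higher, and Serpinh1 (the collagen chaperone HSP47) was at 543.3 ± 9.31 TPM and 537.8 ± 11.6 TPM (SD, n = 3 each), not called at -0.01 as deposited and called higher at 0.35 with median-ratio scaling.

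Of the genes for procollagen processing and lysyl oxidase activation, 6 of 12 were tested and 5 were lower (58.5% of all tested genes), with a median of -0.77 beside -0.33 for all genes. With median-ratio scaling 4 were lower and 1 higher. Pcolce, the enhancer of procollagen C-proteinase, fell from 894.9 ± 35.3 to 338.8 ± 16.7 TPM (SD, n = 3 each, log2 fold change -1.40, adjusted p = 8.22e-07 in limma). Postn (periostin), which brings Bmp1 to fibronectin, fell from 43.4 ± 4.25 to 1.99 ± 0.523 TPM (SD, n = 3 each, log2 fold change -3.90, adjusted p = 1.09e-06 in limma). Adamts14, a procollagen N-proteinase, had a log2 fold change of -0.82. Bmp1, the protease that cleaves procollagen and the lysyl oxidase propeptide, was at 67.2 ± 1.09 TPM and 59.3 ± 2.75 TPM (SD, n = 3 each) and was called lower as deposited (-0.18) and higher with median-ratio scaling (0.18).

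Of the substrates, 7 of 13 were tested, 5 were lower and 1 higher (58.5% and 8.66% of all tested genes), with a median of -1.10 beside -0.33 for all genes. With median-ratio scaling 5 were lower and 2 higher. Col5a1 had 494.1, 489.0 and 502.2 TPM with rGST and 206.3, 245.4 and 240.7 TPM with rSLURP1 (log2 fold change -1.10, adjusted p = 9.34e-06 in limma). Col1a1, the main chain of type I collagen, was low and fell further, from 8.78 ± 1.15 to 0.327 ± 0.083 TPM (SD, n = 3 each, log2 fold change -2.88). Col6a1 and Col6a3 had log2 fold changes of -2.45 and -1.18. Col4a1, of basement membrane collagen, was the gene called higher (0.28), and elastin (Eln) was listed at 0 in all 6 libraries.

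**Figure D4:**
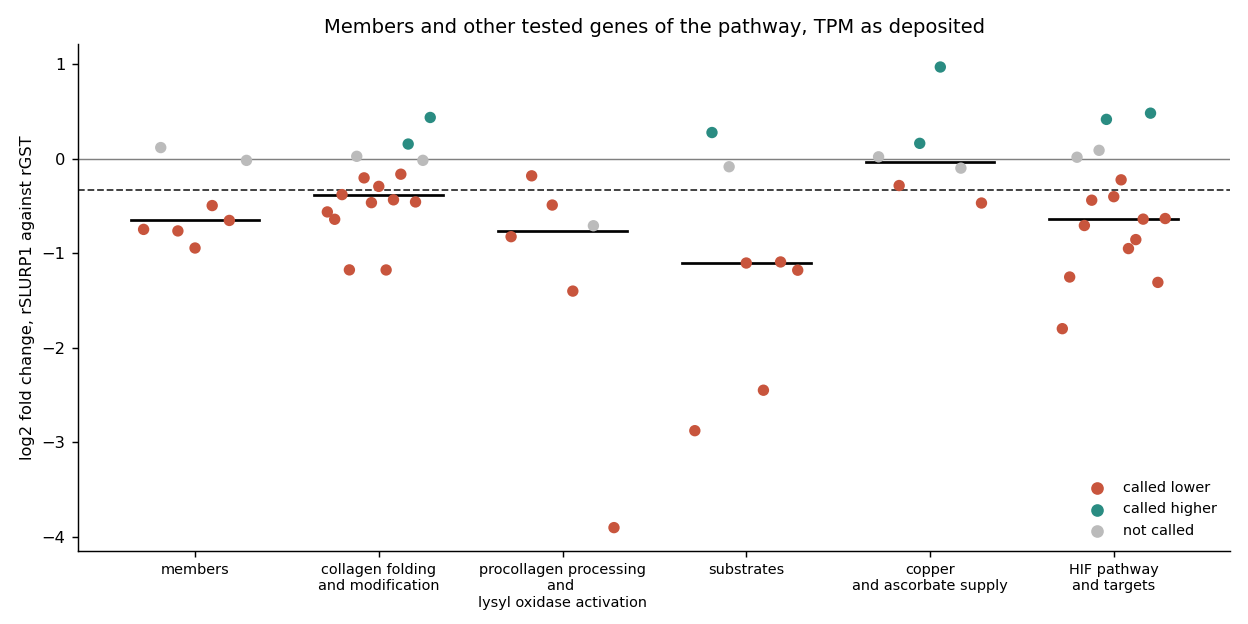
Log2 fold change (y axis, rSLURP1 against rGST, TPM as deposited) of the tested members and of the tested genes in each of the 5 lists, where a point is a gene, colored by its call at an adjusted p of 0.05 in limma, short black lines are medians and the dashed line is the median of all tested genes, -0.33. The members' median is -0.65, between those of the collagen folding list (-0.38) and the substrates (-1.10).

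Of the genes for copper and ascorbate supply, the cofactors of these enzymes, 6 of 8 were tested, 2 were lower and 2 higher (58.5% and 8.66% of all tested genes), with a median of -0.04. With median-ratio scaling 4 were called higher and the other 2 were not called, with a median of 0.32. Slc23a2, a transporter that takes up ascorbate, rose from 22.2 ± 0.200 to 44.6 ± 3.06 TPM (SD, n = 3 each, log2 fold change 0.97, adjusted p = 1.17e-05 in limma), and Gsto1, which can reduce dehydroascorbate, was the other gene called higher. Slc31a2 and Atp7a (a copper pump that loads lysyl oxidases in the secretory pathway) were called lower at -0.47 and -0.28, and neither was called with median-ratio scaling, at which Atp7a was at 0.06. Atox1, a copper chaperone, had the highest level of the list and was not called (0.02), whereas with median-ratio scaling it was called higher (0.38).

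Of the HIF pathway and its targets, 15 of 18 were tested, 11 were lower and 2 higher (58.5% and 8.66% of all tested genes), with a median of -0.63 beside -0.33 for all genes. Pgk1, a glycolytic enzyme, fell from 1828 ± 90.1 to 1175 ± 63.5 TPM (SD, n = 3 each, log2 fold change -0.64, adjusted p = 4.11e-05 in limma). Ankrd37, Vegfa and Arnt (the partner of HIF alpha subunits) had log2 fold changes of -1.80, -1.31 and -1.25 and were called lower. The genes called higher were Hif1a (0.42), which is the factor itself, and the glucose transporter Slc2a1 (0.48), a target. Of the others, Ldha was called lower as deposited (-0.22) and higher with median-ratio scaling (0.14). Bnip3 (0.02) and Egln3 (0.09) were not called as deposited and were called higher with median-ratio scaling (0.38 and 0.43). Whether HIF activity differed was not tested. Regulators of the pathway were also among the 11 called lower: Vhl (-0.63), Egln1 (-0.70), Egln2 (-0.44) and Hif1an (-0.40). With median-ratio scaling Vhl (-0.28) and Egln1 (-0.35) were still called lower, whereas Egln2 (-0.08) and Hif1an (-0.05) were not called. The number lower is therefore not a number of targets. With median-ratio scaling 8 of these genes were called lower and 5 higher.

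The genes with the most similar pattern over the 6 libraries were found by the Euclidean distance between mean-centred log2(TPM + 1) values among all tested genes. For P4ha1 they were Abcc10, Zfp715 and Keap1 (distances 0.068, 0.069 and 0.069). For Plod3 they were Gtf2a2, Kifc2 and Pak4 (0.077, 0.082 and 0.083), and for Loxl3 they were Cfp, AC116151.2 and Mapk12 (0.129, 0.133 and 0.162).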

How the data were processed

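RNAseq values of 6 D2A1 libraries were used (3 rSLURP1, 3 rGST). Groups followed the sample titles, and columns were matched by library name. The authors deposited TPM in 1 table, 1 column per library, not pooled. Per the labels and the study's methods, reads were trimmed with Cutadapt, aligned to mm10 with STAR (2.5.2b in the submitters' processing notes) and quantified per gene with RSEM on GENCODE M12. A TruSeq mRNA kit is named in the labels and Smart-seq2 in the methods, and strand use is not given in the sources used here. Coordinates come from GENCODE M21 (GRCm38), in which 54079 of the 54146 identifiers were found without their version. TPM keeps no read depth, so precision rests on replicates alone.

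From the TPM, log2(TPM + 1) was tested for 12301 genes, those reaching 1 TPM in 3 libraries or more, by limma 3.58.1 (R 4.3.3; lmFit, eBayes with trend), without a block, with Benjamini-Hochberg adjustment over all of them. Fold changes on this scale understate changes of low genes. Calls used an adjusted p of 0.05, and a fold change of 2 where stated. Shares and ratios were compared by two-sided exact permutation tests (scipy 1.17.1). The fit was tested on simulated data in which few genes changed, in both directions, with no overall shift. These data do have such a shift, so that test does not bear on the choice of scaling. The members and lists were chosen with earlier results of these data known. The genes named were all members and, per list, the gene with the highest mean TPM, up to 3 called genes with the largest change and no overlap between treatments, and others that a count or a result turns on, named after their values were seen. The alternatives changed the pseudocount (0.1), the filter (none, or 1 TPM in all 6 libraries), the scaling (median-ratio or quantile), the variance trend (off) and the design (replicate number blocked, or each library left out in turn). A loess correction (span 0.3) for transcript length and GC content was added after the data were seen. Same-numbered libraries did not deviate together (r = -0.056, -0.034 and -0.061 for replicates 1 to 3). RefSeq protein sequences were not used here.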

Additional observations from a re-analysis of the deposited data

How the results depend on the processing

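P4ha1 and P4ha2 were called lower in all 14 alternative fits. The 3 settings that re-centre the libraries moved the other calls. Under median ratios, quantiles and the correction for length and GC, in that order, Loxl3 was at -0.42, -0.34 and -0.28, Plod1 at -0.15, -0.11 and -0.033, and Plod2 at -0.30, -0.28 and -0.28, none of them called, whereas Loxl4 was at 0.43, 0.52 and 0.56 and Plod3 reversed to 0.34, 0.21 and 0.39, both called higher. Adjusted p over the alternatives reached 0.152 for Loxl3, 0.681 for Plod1 and 0.0667 for Plod2 in limma. The members called were then 2 lower and 2 higher in each of the 3 settings. All tested genes called lower were 3029, 2904 and 2701 and called higher 3274, 3107 and 3313, in place of 7200 and 1065. Genes of the 5 lists called lower were 21, 23 and 21, and those called higher 18, 12 and 15, in place of 34 and 7. These settings moved the median of all tested genes to 0.01, 0.02 and 0.03, by their construction.

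Leaving out 1 library at a time left 5 members called lower and 0 higher, from 6605 to 6999 tested genes lower and from 906 to 1020 higher, and from 32 to 34 list genes lower and from 5 to 6 higher. Plod3 ranged from -0.042 to 0.028, above 0 without rGST replicate 3 (0.028) and without rSLURP1 replicate 2 (0.020). Loxl4 ranged from 0.026 to 0.20, Loxl3 from -0.87 to -0.60, Plod1 from -0.54 to -0.43, Plod2 from -0.76 to -0.54, P4ha1 from -0.81 to -0.72 and P4ha2 from -1.04 to -0.87.

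The same-numbered libraries share only a number, and 0 of the 6 correlated best with their own number. With the replicate block, 6954 tested genes were called lower and 1008 higher, and 5 members lower and 0 higher, with P4ha1 at an adjusted p of 0.000144 and Loxl3 at 0.00524 in limma. It changed no call of a member.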
